A study of Mus musculus with 12 samples.

Results

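The comparison described here is between mouse embryonic fibroblasts (MEFs) that received 7 cardiac factors and MEFs that received none. Its members were taken by array title, the 3 arrays of TF group 3 (called 7-factor arrays here) and the 3 arrays of the negative control (control arrays), which are 6 of the 12 arrays of the series. Every probe set of the array design other than the 64 built-in AFFX controls was tested, 22626 of 22690, and 12393 genes had a probe set of a single symbol. All MEFs were C57BL/6 cells from a commercial supplier, all were infected with a virus encoding M2rtTA, which turns on tetracycline promoters when doxycycline is present, and all were kept in doxycycline for 7 days, per the labels. The 7-factor cultures also received doxycycline-inducible lentiviruses for GATA4, TBX5, MEF2C, MESP1, SMARCD3, MYOCD and SRF. The remaining arrays are used only to place the 7-factor values. These are the 3-factor cultures (TF group 1, with GATA4, TBX5 and MEF2C) and the 5-factor cultures (TF group 2, the same plus MESP1 and SMARCD3). The cDNAs were human apart from mouse Mesp1, and the methods add valproic acid, a histone deacetylase inhibitor, to the culture protocol. RNA came from whole unsorted cultures, so fewer cells with a transcript and less of it per cell cannot be told apart. The labels call the arrays biological replicates, with no further detail of separate cultures, and the p-values measure the spread between these arrays.

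GATA4, TBX5 and MEF2C are DNA-binding factors of the developing heart, MESP1 acts at the start of cardiac mesoderm, and SMARCD3 (BAF60C) is the cardiac subunit of the BAF chromatin remodelling complex. SRF binds CArG boxes in the control regions of contractile and growth-response genes, and myocardin (MYOCD) is the SRF partner of cardiac and smooth muscle. Fibroblasts contain endogenous SRF, which works with other partners in actin-regulated and growth-factor-regulated transcription.

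Signals are deposited linear array intensities taken to log2, so a difference of 1 is a doubling. A gene was called higher or lower at an adjusted p under 0.05 and a fold over 1.5, in a limma fit across all genes, and an SE is that of the log2 difference of the fit. Each array had the same trimmed mean signal of 500.2, and 20.4% to 24.2% of probe sets on these 6 arrays lay under a signal of 32 (log2 5), where the median replicate SD was 0.84, against 0.07 above log2 11. A fold whose lower side fell under 32 is given as a bound, computed against 32. Arrays of one group correlated at 0.96 to 0.966 and arrays of different groups at 0.925 to 0.93. The poly-A spikes, bacterial RNAs meant to be added to each sample in a fixed amount, read 0.79 higher on the 7-factor arrays, and setting the arrays equal on them moved the median change of all genes from 0.05 to −0.74. List medians are therefore best read against the median of all genes. The poly-A value is printed beside each list median that changes sign on that scale.

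Mesp1, the factor delivered as mouse cDNA, read 6.46, 7.49 and 6.95 in control and 10.75, 10.63 and 10.29 in 7-factor cultures, with means of 6.85 and 11.03 with 3 and 5 factors, so its signal was high in the groups labelled as receiving it. Of the factors delivered as human cDNAs, whose signal on mouse probe sets need not follow the virus, Smarcd3 was called higher (1.85) and Mef2c on 1 of 5 probe sets (2.38), Srf was lower, Gata4 and Tbx5 were not called, and Myocd was called on 1 of 2 probe sets, under 32 in both groups. Fibroblast transcripts were abundant in both groups. All 10 fibroblast markers were above 32 in both, with summed signals of 79544 to 84260 on the control arrays and 77100 to 78291 on the 7-factor arrays. Cardiomyocyte markers summed to 378 to 484 and 8665 to 9835, with 7 of 10 called higher. These 7 include Tnni3, the cardiac inhibitory troponin, which stayed under 32 in both groups. The call of Tnni3 was lost on the poly-A scale and without some array. Markers of the other cell types that such cultures could hold gave summed signals, control first, of 1702 to 1898 and 982 to 1092 for skeletal muscle (8 markers, 1 higher and 1 lower), 982 to 1068 and 2439 to 2878 for neurons (5 markers, 3 higher) and 314 to 375 and 577 to 607 for epithelium (6 markers, 2 higher). Acta1, the skeletal muscle marker called lower, made up most of the skeletal sum in both groups. The fall of that sum lies in this gene, and Mylpf was the marker called higher. For adipocytes the sums were 451 to 521 and 67 to 82 (3 markers, 2 lower, Adipoq under 32 in both groups). Endothelial markers summed to 73 to 166 and 86 to 132, with Pecam1, Tek, Tie1 and Vwf under 32 in both groups, and macrophage markers at 423 to 470 and 455 to 556. The part of other cell types in the results below was not tested.

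In all, 3077 genes were called, 24.8% of those tested. Of these, 1847 genes (14.9%) were higher in the 7-factor cultures and 1230 (9.92%) were lower, so that 60% of the calls were higher, a share that became 47.9% with arrays set to equal medians and 6.8% on the poly-A scale. The same rule called 3078 probe sets higher (13.6%) and 2117 lower (9.36%). Counts of called members in the gene lists below are best read against the 14.9% higher and 9.92% lower of all genes. Changes over 4-fold were found in 251 higher and 173 lower genes, and over 8-fold in 95 and 37. For 429 called genes the lower group lay under 32, and for 106 both did. Among the largest changes outside muscle, Car2, a carbonic anhydrase, read 5.78, 5.08 and 5.40 in control and 11.29, 11.40 and 11.47 in 7-factor cultures (62.6-fold higher), and Serpinb1a, a protease inhibitor, was 57.4-fold higher. Ppbp, a platelet-type chemokine, was 10.7-fold lower. Among the 1294 called genes with several probe sets, another probe set was called the same way in 749 and a probe set was called the other way in 9.

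**Figure D1:**
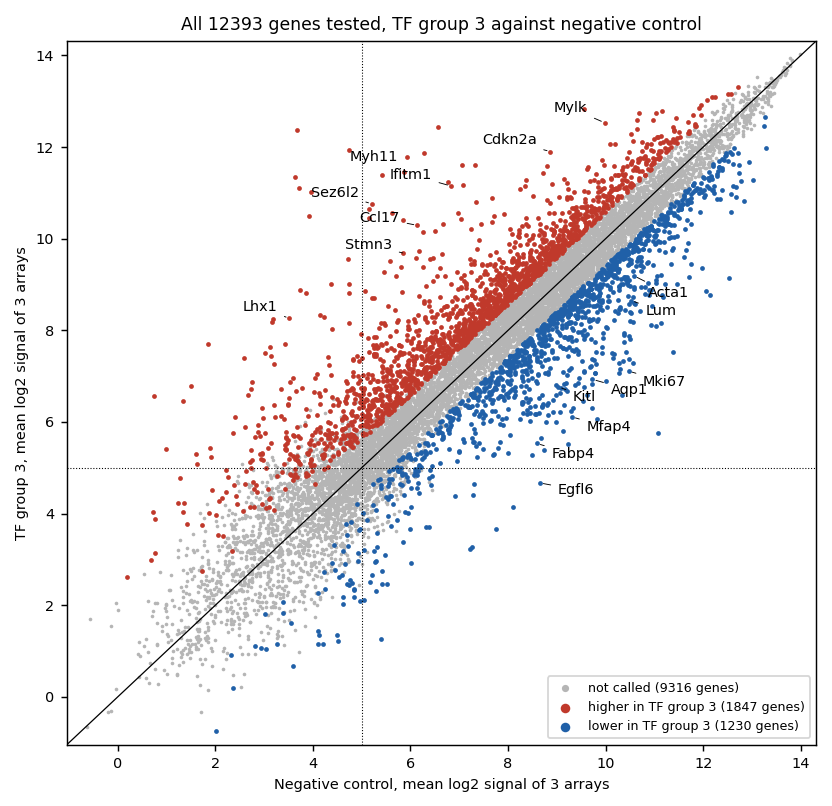
Mean log2 signal of the 3 control arrays (horizontal) against that of the 3 7-factor arrays (vertical), 1 point per gene. The diagonal marks equal signal, dotted lines a signal of 32, red the 1847 genes called higher and blue the 1230 called lower.

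Smooth muscle myosin separated the 7-factor cultures from the other 3 groups. Myh11, the smooth muscle myosin heavy chain, read 5.78, 5.75 and 6.06 on the control arrays and 11.50, 11.49 and 11.39 on the 7-factor arrays. The groups were far apart and the difference was 48.4-fold (log2 5.60, SE 0.14, adjusted p = 7.945e-09, limma), and both of its probe sets were called. Against the 3-factor and 5-factor cultures, whose means were 5.83 and 6.27, the differences were 5.63 and 5.18. Mylk, the myosin light chain kinase that starts smooth muscle contraction, read 10.01, 9.90 and 10.04 against 12.52, 12.49 and 12.58 (5.84-fold, all 3 probe sets called). Kcnmb1, the beta subunit of the smooth muscle BK potassium channel, read 5.51, 5.66 and 6.08 against 7.95, 8.41 and 8.31 (5.55-fold). For both genes the 3-factor and 5-factor means lay near the control, at 9.63 and 9.61 for Mylk and 5.32 and 6.07 for Kcnmb1.

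The rest of the smooth muscle contractile programme was already bright in the control MEFs and moved little on the deposited scale. Of 27 measured members of the list, 6 were higher and none lower, with a median of 0.22 that became −0.58 on the poly-A scale with 3 higher and 13 lower. Acta2, smooth muscle actin, read 13.75, 13.79 and 13.96 in control and 13.91, 13.88 and 13.89 in 7-factor cultures, and its values overlapped. Tagln (transgelin), Cald1 (caldesmon) and Myl9 (the regulatory light chain) changed by −0.13, 0.12 and 0.22 and were not called, whereas on the poly-A scale Acta2 and Cald1 would be called lower. Des, the intermediate filament protein of muscle, was 2.12-fold higher, but its other probe set changed by −0.38. Beside the other factor groups, 11 of 27 members were higher than in the 3-factor cultures (all genes 3.38% higher, 3.17% lower) and 7 higher and 1 lower than in the 5-factor cultures (all genes 2.49% higher, 1.84% lower). Several actin-linked genes had lower means in those groups than in the control. Acta1, skeletal muscle actin and part of the fetal heart programme, is the clearest, at 10.47, 10.66 and 10.60 in the control, a mean of 7.85 with 3 factors, 7.91 with 5 and 9.15, 9.20 and 9.22 with 7. The 7-factor level was thus 1.39 below the control and 1.34 and 1.28 above the other groups, all called. Actg2, the enteric smooth muscle actin, and Cnn1, calponin, had the same order against the factor groups (1.73 and 0.85 above 5 factors) with changes against the control of 0.54 and −0.43 that were not called. These last 2 genes were chosen after their values were seen.

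**Figure D2:**
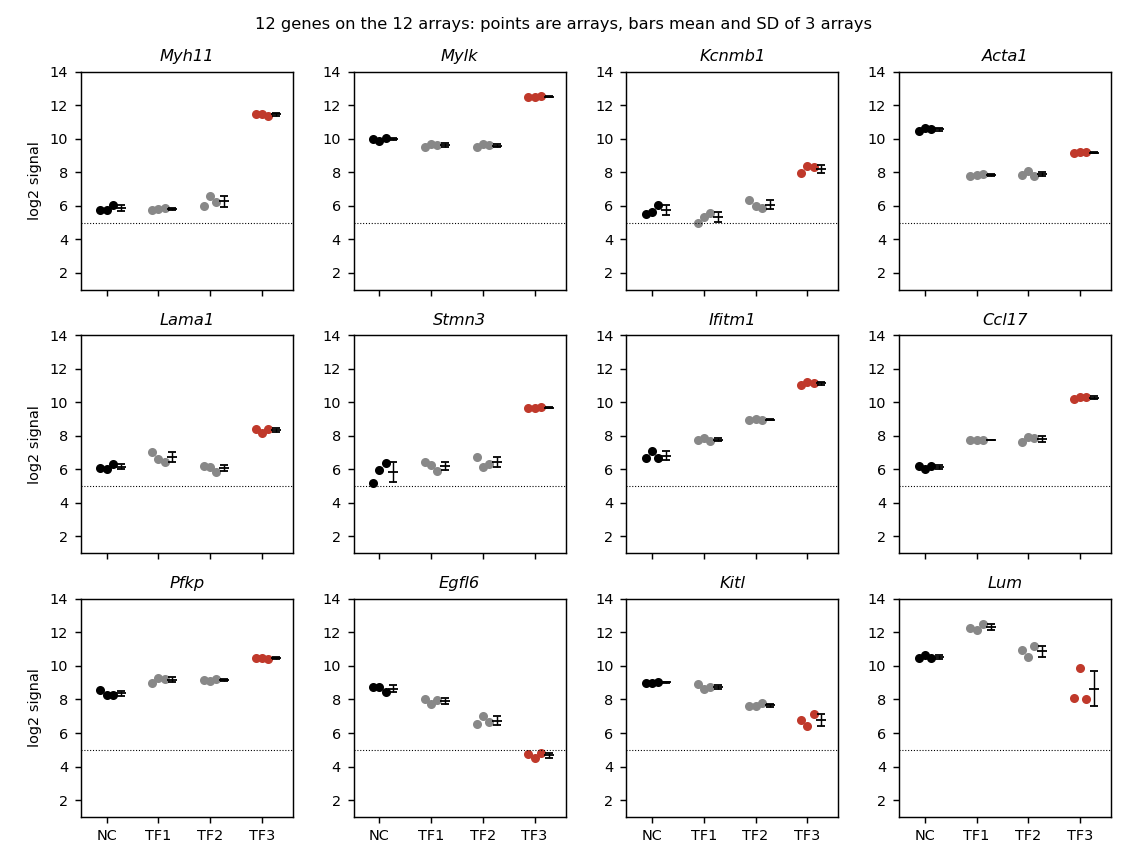
Log2 signal of 12 genes on the 12 arrays of the series, in control (NC), 3-factor (TF1), 5-factor (TF2) and 7-factor (TF3) cultures. Points are arrays, the bar beside them the mean and SD of 3 arrays, and the dotted line a signal of 32. Myh11, Mylk, Kcnmb1, Lama1, Stmn3, Ifitm1, Ccl17 and Pfkp are highest on the 7-factor arrays, while Egfl6, Kitl and Lum are lowest there.

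The promoters of the contractile genes are shown because SRF and MEF2C, both delivered, have known recognition sequences. Windows of 250 bases before to 50 after the annotated start were taken from RefSeq (GRCm38.p6), and both strands were searched for the CArG box and the MEF2 site by their degenerate consensus. No 10 bases can match both patterns. A match is a description of the letters and says nothing of binding. Of 9882 tested genes with a window, 173 held a CArG box (1.8%) and 2.4% a MEF2 site. In the cardiac sarcomere list, 6 of 27 genes with a window held a CArG box (22.2%) and 3 a MEF2 site, and in the smooth muscle list 4 of 22 held a CArG box (18.2%). The GATA motif AGATAA was in a window of 6 of these 27 sarcomere genes (22.2%, against 9.4% of tested genes) and the T-box motif AGGTGTG in 3 (11.1% against 5.9%). Neither share was particular to this list. AGATAA was found in 4 of 16 neuronal genes (25.0%) and AGGTGTG in 7 of 18 desmosome, junction and keratin genes (38.9%). The 250 bases before the start of Actc1, cardiac actin, whose signal was 12.7-fold higher, are printed on the gene's strand with the CArG box in capitals.
Actc1, chr2:114052876-114053125, minus strand: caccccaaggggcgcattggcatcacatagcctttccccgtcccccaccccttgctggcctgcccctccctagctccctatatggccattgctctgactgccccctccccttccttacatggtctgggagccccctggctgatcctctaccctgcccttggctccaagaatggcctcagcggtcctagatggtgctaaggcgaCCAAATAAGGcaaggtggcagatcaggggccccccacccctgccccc

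Shorter stretches, of up to 30 bases on each side of the match in capitals, follow for genes that rose, fell or were not called.
Myl7 (CArG box), chr11:5898804-5898873, minus strand: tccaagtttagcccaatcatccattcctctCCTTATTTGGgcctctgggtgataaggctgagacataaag
Ldb3 (CArG box), chr14:34588677-34588746, minus strand: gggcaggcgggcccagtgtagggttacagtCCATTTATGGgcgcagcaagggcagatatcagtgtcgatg
Myom1 (CArG box), chr17:71019428-71019497, plus strand: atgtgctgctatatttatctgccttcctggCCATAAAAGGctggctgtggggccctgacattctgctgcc
Acta1 (CArG box), chr8:123894809-123894878, minus strand: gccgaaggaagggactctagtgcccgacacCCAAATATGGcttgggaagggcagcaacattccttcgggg
Myl9 (CArG box), chr2:156775273-156775342, plus strand: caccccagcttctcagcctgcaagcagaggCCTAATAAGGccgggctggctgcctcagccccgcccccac
Cnn2 (CArG box), chr10:79988514-79988583, plus strand: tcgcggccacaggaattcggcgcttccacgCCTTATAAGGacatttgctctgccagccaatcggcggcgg
Mybpc3 (MEF2 site), chr2:91118024-91118093, plus strand: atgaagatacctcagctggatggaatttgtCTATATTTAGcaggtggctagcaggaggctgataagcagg
Ttn (MEF2 site), chr2:76982674-76982743, minus strand: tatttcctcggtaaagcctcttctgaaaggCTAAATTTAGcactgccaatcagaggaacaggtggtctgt
Casq2 (MEF2 site), chr3:102086316-102086385, plus strand: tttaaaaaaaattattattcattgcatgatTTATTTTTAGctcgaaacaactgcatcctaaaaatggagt
The CArG box of Actc1 began 47 bases before the start, that of Myl7 61 bases, of Acta1 73 bases and of Myl9 161 bases. Of the 6 sarcomere genes with a CArG box, 4 were called higher, beside 20 of 32 (62.5%) in the whole list. Myl3 (0.07, a slow and ventricular light chain) and Nebl (−0.09, nebulette, under 32 in both groups) were not called. Beside Actc1, Myl7 (atrial regulatory light chain), Ldb3 (a Z-disc PDZ-LIM protein) and Myom1 (myomesin) were called higher, with changes of 1.58, 3.57 and 1.57. Acta1 was called lower. None of the 4 smooth muscle genes with a CArG box was called, namely Myl9, Cnn2 (a non-muscle calponin, −0.40), Myl6 (0.3) and Vcl (−0.03). The 3 sarcomere genes with a MEF2 site, Mybpc3, Ttn and Myoz2, were called higher on the deposited scale, and of these Mybpc3 alone keeps its call on the poly-A scale. Myoz2 stayed under 32 on average in both groups and also lost its call without control replicate 1. Casq2, the calcium store protein of the sarcoplasmic reticulum, was higher too. Of 26 skeletal muscle genes with a window, 4 held a MEF2 site (15.4%). Of these Myh1 was called higher, while Myh4 (0.27), Myh8 (−1.56) and Pvalb (1.95) were not called. Over all genes called higher, 1.8% held a CArG box and 2.7% a MEF2 site, close to the shares of all tested genes. Myl7, Ldb3, Myom1, Myl3, Nebl, Ttn, Cnn2, Myoz2, Myl6, Vcl, Myh4, Myh8 and Pvalb were chosen for their matches.

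Pdlim3, a muscle Z-disc protein, read 4.77, 3.49 and 3.65 in control and 10.99, 10.99 and 11.06 in 7-factor cultures (at least 64.6-fold higher). Sarcomere genes rose as a group, with 20 of 32 measured members higher, none lower and a median of 1.48 (0.68 on the poly-A scale with 14 higher and 3 lower). Their levels differed among the factor groups in both directions, 11 being higher and 1 lower than with 3 factors, and 9 higher and 5 lower than with 5. Ldb3 read 6.23, 6.04 and 6.23 in control and 9.87, 9.68 and 9.65 in 7-factor cultures, and its means with 3 and 5 factors, 9.43 and 9.72, did not differ from it beyond the threshold. Myom1, the M-line protein, read 6.88, 6.75 and 6.81 in control and 8.51, 8.39 and 8.25 in 7-factor cultures and was above both other groups, by 1.09 and 1.43. Thin-filament and filament-linked genes that fibroblasts also use changed little, Tpm1 (tropomyosin) by 0.09 and Flnc (filamin C) by 0.25, though on the poly-A scale Tpm1 would be called lower. Of 26 genes of calcium handling and excitation 3 were higher (11.5%) and 1 lower (3.8%), both under the shares of all genes (14.9% and 9.92%). Their median of 0.11 became −0.68 on the poly-A scale, with 1 higher and 10 lower. Kcnh2, the hERG potassium channel, was 2.08-fold higher, and Gjc1 (connexin 45) was 3.41-fold lower. Ryr2, the calcium release channel, changed by 0.28 and Atp2a2, the SERCA2 pump, by 0.02, and neither was called. On the poly-A scale Atp2a2 would be called lower, and the mean of its 4 probe sets is called higher.

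Among the natriuretic peptide and fetal cardiac genes, 4 of 9 rose and 1, Acta1, fell, with a median of 0.99. Nppb, B-type natriuretic peptide, read 7.64, 8.20 and 7.93 in control and 10.55, 10.48 and 10.55 in 7-factor cultures (6.08-fold), with 3-factor and 5-factor means of 8.58 and 8.32. Ankrd1, a stretch-responsive nuclear protein of heart muscle, read 10.63, 10.68 and 10.65 in control and 12.60, 12.59 and 12.60 in 7-factor cultures, 1.79 above the 3-factor mean and within the threshold of the 5-factor mean. Npr2, a natriuretic peptide receptor, was 1.99-fold higher.

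Genes of fast skeletal muscle were also found, though the list as a whole moved little (7 of 33 higher, 1 lower, median 0.27, −0.52 on the poly-A scale with 4 higher and 9 lower). Myl1, the fast skeletal essential light chain, read 5.34, 4.64 and 4.26 in control and 11.87, 11.91 and 12.0 in 7-factor cultures, a difference of at least 122-fold, and was 1.14 below the 5-factor mean of 13.06. Myh1, a fast myosin heavy chain, was 11.1-fold higher than control and 1.10 below the 5-factor mean. Mylpf, the fast regulatory light chain, read 4.71, 4.91 and 5.07 in control and 7.16, 7.59 and 7.60 in 7-factor cultures and was above both other groups. Myod1, which starts the skeletal programme, changed by −0.08 and was not called. In the dystrophin and sarcoglycan complex, which ties the cytoskeleton to the membrane, 4 of 15 members rose and 1 fell (median 0.54, −0.26 on the poly-A scale with 1 higher and 3 lower), with Dtna (dystrobrevin) 2.67-fold and Cav3 (caveolin 3) 2.04-fold higher.

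Endogenous regulators moved in both directions. Of 28 cardiac transcription factors, 5 rose (17.9%) and 3 fell (10.7%), near the shares of all genes (14.9% and 9.92%). Their median was 0.16 (−0.64 on the poly-A scale with none higher and 13 lower). Zfpm1 (a GATA cofactor) was at 1.04 and Hey2 (a Notch-responsive repressor) at −1.16. Nkx2-5, a core cardiac homeobox factor, read 4.99, 5.40 and 5.96 in control and 4.58, 5.03 and 5.41 in 7-factor cultures, near the floor of the array and overlapping. SRF cofactors and immediate early genes were 3 higher (10.7%) and 6 lower (21.4%) of 28, with a median of −0.19. Fosl1, an AP-1 subunit of growing cells, read 10.26, 10.33 and 10.31 in control and 8.51, 8.53 and 8.50 in 7-factor cultures (3.45-fold lower). Fos itself was 1.83-fold higher, Dusp1 and Nr4a1 1.98-fold and 1.91-fold lower. Ccn2 and Ccn1, matricellular genes of the SRF and YAP pathways, changed by −0.15 and −0.23 and were not called. Mouse Srf, whose probe sets were not designed for the human cDNA, read 9.58, 9.77 and 9.54 in control and 8.93, 8.75 and 8.65 in 7-factor cultures, 1.81-fold lower. Both of its probe sets were called.

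The most uniform change was the fall of cell-cycle genes. All 42 measured mitosis genes were lower, with a median of −2.48, and 35 of 36 DNA replication genes, with a median of −1.79. Ube2c, the ubiquitin-conjugating enzyme of mitotic exit, read 12.07, 12.17 and 12.18 in control and 8.51, 8.78 and 9.04 in 7-factor cultures (10.3-fold, SE 0.13, adjusted p = 7.191e-08, lower). Tk1, thymidine kinase of S phase, read 10.23, 10.43 and 10.33 in control and 6.34, 6.58 and 6.86 in 7-factor cultures (13.4-fold lower). Cdc6, a replication licensing factor, read 9.02, 8.92 and 9.0 in control and 5.90, 5.73 and 6.38 in 7-factor cultures (7.86-fold lower). In each of these the groups did not overlap and every control array was several-fold above every 7-factor array. Nuf2, a kinetochore protein, had 7-factor values of 6.38, 3.41 and 6.38, and its change of −3.35 became −2.36 without 7-factor replicate 2. Tyms, thymidylate synthase and the replication gene that was not called, was under 32 in both groups. Against the 3-factor and 5-factor cultures the 7-factor levels differed by −0.15 and 0.13 for Ube2c, −0.35 and −0.17 for Tk1 and −0.07 and 0.39 for Cdc6, none called.

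Mitotic promoters are shown for their shared motifs, since genes of the G2 and M phases commonly carry CCAAT boxes (bound by NF-Y) beside a cell cycle homology region, searched here as TTTGAA. Of 35 mitosis genes with a window, 26 held TTTGAA (74.3%, against 15.4% of tested genes), 26 held CCAAT (74.3% against 42.3%) and 23 held both (65.7% against 6.0%). No CArG box was found in them. Of 30 DNA replication genes with a window, 7 held the E2F motif TTTCGCG (23.3% against 1.8%). CCAAT was in 16 of them (53.3% against 42.3%) and TTTGAA in 3 (10.0% against 15.4%). All motifs were searched on both strands. The 250 bases before the start of Mki67, the Ki-67 proliferation antigen, hold 2 copies of TTTGAA and 3 of CCAAT or its reverse complement, in capitals.
Mki67, chr7:135716380-135716629, minus strand: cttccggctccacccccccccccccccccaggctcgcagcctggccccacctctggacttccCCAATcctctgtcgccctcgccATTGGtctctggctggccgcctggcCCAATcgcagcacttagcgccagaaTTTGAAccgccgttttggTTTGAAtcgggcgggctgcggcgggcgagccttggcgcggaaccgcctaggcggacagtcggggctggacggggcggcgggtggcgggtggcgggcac

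Further stretches show the motif in capitals, TTTGAA or its reverse complement for Ube2c, Top2a (topoisomerase II alpha), Cdk1 (the mitotic kinase) and Cdc20 (an activator of the anaphase-promoting complex), and TTTCGCG or its reverse complement for Mcm5 and Mcm6, subunits of the replicative helicase.
Ube2c (TTTGAA), chr2:164769870-164769928, plus strand: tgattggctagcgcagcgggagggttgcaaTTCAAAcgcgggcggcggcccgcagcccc
Top2a (TTTGAA), chr11:99024333-99024398, minus strand: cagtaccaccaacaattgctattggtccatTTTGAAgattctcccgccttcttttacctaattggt
Cdk1 (TTTGAA), chr10:69352948-69353013, minus strand: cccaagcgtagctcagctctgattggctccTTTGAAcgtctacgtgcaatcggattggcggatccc
Cdc20 (TTTGAA), chr4:118437344-118437391, minus strand: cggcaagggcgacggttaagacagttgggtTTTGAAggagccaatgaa
Mcm5 (TTTCGCG), chr8:75109326-75109392, plus strand: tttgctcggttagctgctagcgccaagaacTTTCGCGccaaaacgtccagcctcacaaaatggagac
Mcm6 (TTTCGCG), chr1:128359774-128359840, minus strand: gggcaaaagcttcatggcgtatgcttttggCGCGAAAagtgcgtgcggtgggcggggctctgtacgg
All 6 genes were lower, with log2 changes of −3.37, −2.94, −2.54, −3.19, −3.03 and −2.30 for Ube2c, Top2a, Cdk1, Cdc20, Mcm5 and Mcm6. Top2a, Cdk1, Cdc20 and Mcm6 were chosen for their promoters, and Top2a was called on 1 of its 2 probe sets. Among all genes called lower, 21.8% held TTTGAA and 3.9% TTTCGCG. Among genes called higher the shares were 14.5% and 1.1%.

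**Figure D3:**
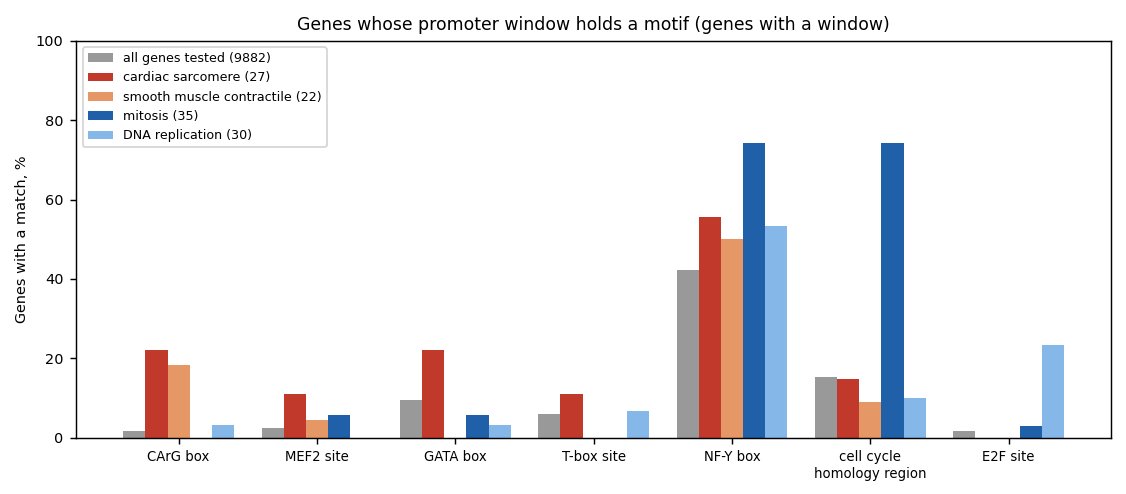
Share of genes (vertical, in %) whose promoter window holds each motif, for all tested genes and for 4 gene lists, with the number of genes that have a window in brackets. NF-Y box stands for CCAAT, the cell cycle homology region for the 6-base motif of the text and the E2F site for the 7-base one. The mitosis bars reach 74.3% for the NF-Y box and 74.3% for the cell cycle homology region.

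CDK inhibitors, G1 cyclins and p53 targets were called in both directions, with 16 of 33 measured members higher and 5 lower and a median of 0.47 (−0.32 on the poly-A scale with 6 higher and 11 lower). Cdkn2a, the locus of p16 and p19Arf, read 8.40, 9.23 and 8.99 in control and 11.89, 11.94 and 11.88 in 7-factor cultures (8.17-fold, SE 0.18, adjusted p = 7.919e-07). Cdkn1a (p21) was already bright and rose from 11.84, 11.99 and 12.0 to 12.93, 12.90 and 12.90, and Cdkn2b (p15) was 1.95-fold higher. Of the p53 targets that act in cell death, Perp rose 7.09-fold, Fas, a death receptor, 6.23-fold, and Pmaip1 (Noxa) 3.94-fold. Trp53inp1 rose 3.45-fold and Mdm2, which degrades p53, 1.8-fold. Members that fell included Rbl1 (p107, 2.47-fold), Cdkn1c (p57, 2.2-fold) and Cdkn2c (p18, 1.99-fold). The 3-factor and 5-factor means of Cdkn2a, 11.80 and 12.11, did not differ from the 7-factor level beyond the threshold. Cdkn1a, Cdkn2b, Trp53inp1 and Mdm2 were chosen after their values were seen, and all but Trp53inp1 of these lose their call on the poly-A scale.

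Genes of the nucleolus and of RNA processing fell in part. Of 34 nucleolus and ribosome biogenesis genes, 19 fell and none rose (median −0.68), as did 17 of 34 spliceosome and RNA processing genes (median −0.58). Nop56 and Fbl, core proteins of box C/D small nucleolar particles, were 2.82-fold and 2.73-fold lower, with Nop56 at 11.15, 11.29 and 11.22 in control and 9.67, 9.73 and 9.77 in 7-factor cultures. Lsm2 and Lsm3, ring proteins that bind U6 RNA, were 3.69-fold and 2.58-fold lower. Of 35 ribosomal protein genes none was higher and 3 were lower (8.6%, near the 9.92% of all genes), among them Rps25 (2.52-fold). In the list of DNA methylation, polycomb and histone deacetylase genes, 3 of 22 rose (13.6%, near the 14.9% of all genes) and 6 fell (27.3%). Uhrf1, which brings DNMT1 to replicating DNA, read 10.45, 10.17 and 10.25 in control and 6.71, 7.14 and 7.58 in 7-factor cultures (8.84-fold lower), and Dnmt1 and Ezh2 (the polycomb methyltransferase) were 3-fold and 3.12-fold lower. Hdac6, a cytoplasmic deacetylase, was 4.31-fold higher and Dnmt3a 2.12-fold. Of 20 BAF complex genes 1 rose (5.0%), Smarca2 (the BRM ATPase, 3.15-fold), and 5 fell (25.0%), among them Actl6a (2.08-fold). Smarcd3 was delivered and is not in this list.

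The fibroblast programme changed in part. None of 27 fibroblast identity genes rose and 9 fell, with a median of −0.40 against 0.05 for all genes. Twist2, a mesenchymal bHLH factor, read 10.36, 10.51 and 10.43 in control and 9.09, 8.96 and 9.13 in 7-factor cultures (2.59-fold lower). Fap, the fibroblast activation protein, was 2.55-fold lower and S100a4 (FSP1) 2.46-fold. Pdgfra, the PDGF receptor of mesenchymal cells, was 2.44-fold lower, 1.38 below the 3-factor mean and within the threshold of the 5-factor mean. Snai1 and Snai2, repressors of epithelial genes, were 2.24-fold and 2.12-fold lower, the latter with wide 7-factor values of 8.06, 8.97 and 9.31. The call of Snai2 was lost without control replicate 2 or 3 or without 7-factor replicate 1, at adjusted p values of 0.06692 to 0.07847. The most abundant fibroblast transcripts changed little on the deposited scale, with changes of 0.06 for Vim (vimentin), 0.17 for Sparc, −0.25 for Lox (lysyl oxidase) and 0.02 for Col3a1. On the poly-A scale, Vim, Sparc and Col3a1 would be called lower. Pdgfra, Snai1 and Snai2 were chosen after their values were seen.

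Matrix genes divided by family. Of 31 collagens, 7 rose (22.6%) and 4 fell (12.9%), beside 14.9% and 9.92% of all genes. The fibrillar Col1a2 and Col5a2 changed by 0.03 and 0.06, with both called lower on the poly-A scale. The chains of type VI collagen went apart, with Col6a3 1.88-fold higher and Col6a1 and Col6a2 1.79-fold and 1.83-fold lower. Elastic fibre and microfibril genes were 1 higher (6.2%) and 5 lower (31.2%) of 16. Mfap4 read 9.19, 9.48 and 9.25 in control and 6.21, 6.02 and 6.10 in 7-factor cultures (9.16-fold, SE 0.26, adjusted p = 8.138e-06, lower) and Mfap5 10.85, 10.94 and 10.99 in control and 8.97, 8.78 and 8.90 in 7-factor cultures (4.12-fold lower), both microfibril-associated proteins. Collagen processing genes were 5 higher (29.4%) and 2 lower (11.8%) of 17 (median 0.15, −0.65 on the poly-A scale with none higher and 10 lower). Plod1, a lysyl hydroxylase, was 1.77-fold higher and Loxl3, a crosslinking enzyme, 2.28-fold lower. Of 15 small leucine-rich proteoglycans, which coat collagen fibrils, 1 was higher (6.7%) and 2 were lower (13.3%) than in the control. Against the other factor groups, 10 were lower than with 3 factors (all genes 3.17%) and 4 lower than with 5 (all genes 1.84%). Lum (lumican) read 10.49, 10.64 and 10.45 in the control and 8.08, 9.86 and 8.01 with 7 factors, with replicate 2 apart from the others. Its change of −1.87 became −2.48 without that array. The means with 3 and 5 factors were 12.32 and 10.88. Ogn and Dcn, uncalled against the control (−0.49 and 0.02), were below the 3-factor mean by 1.44 and 1.07, and on the poly-A scale both would be called lower than the control. Among the metalloproteinases and inhibitors 4 of 26 rose (15.4%, near the 14.9% of all genes) and 6 fell (23.1%). Timp3, a matrix-bound inhibitor, was 3.1-fold higher with all 4 probe sets called, and Mmp3 (stromelysin) and Adamts5 (an aggrecanase) were 5.35-fold and 3.04-fold lower.

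Adhesion genes rose in part. Of 29 integrin, laminin and basement membrane genes 8 rose and none fell (median 0.14, −0.65 on the poly-A scale with 3 higher and 9 lower). Lama1, the laminin alpha 1 chain, read 6.11, 6.05 and 6.32 in control and 8.39, 8.20 and 8.44 in 7-factor cultures (4.54-fold, SE 0.16, adjusted p = 3.036e-06) and was 1.62 and 2.27 above the 3-factor and 5-factor means. Itga7, the laminin receptor subunit of muscle, was 3.55-fold higher, Itga9 3.39-fold and Itga6 2.14-fold. Of 32 desmosome, junction and keratin genes 8 rose and 1 fell (median 0.30, −0.49 on the poly-A scale with 5 higher and 11 lower). Dsg2, the desmosomal cadherin of heart, read 5.50, 4.72 and 5.54 in control and 7.58, 7.44 and 7.46 in 7-factor cultures (4.73-fold, SE 0.23, adjusted p = 3.463e-05, 3 of 6 probe sets called), and Jup (plakoglobin) was 3.88-fold higher. Pkp2, the plakophilin of heart, was 2.22-fold higher and 1.29 and 1.01 above the other factor groups. Krt18, a simple-epithelium keratin, was 3.04-fold higher and Krt7 3.32-fold lower. Pkp2 and Krt18 were chosen after their values were seen.

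Lysosomal genes rose on the deposited scale, 33 of 43 being higher and 1 lower with a median of 0.95, whereas on the poly-A scale 4 were higher and 4 lower with a median of 0.16. Neu1, a sialidase, read 7.02, 6.76 and 6.70 in control and 8.90, 9.16 and 8.95 in 7-factor cultures (4.53-fold, SE 0.13, adjusted p = 7.989e-07, 2 of 3 probe sets called). Atp6v1b2 and Atp6v0a1, subunits of the proton pump that acidifies lysosomes, were 3.72-fold and 2.85-fold higher, and Ctsh (cathepsin H) 3.05-fold. Hexa, a hexosaminidase, was 2.33-fold higher and Ctsd (cathepsin D) 2.16-fold. The member that fell, Ctss (cathepsin S, a leukocyte protease), read 5.66, 5.81 and 6.05 in control and 4.74, 1.95 and 3.47 in 7-factor cultures. Its call was lost when any array other than 7-factor replicate 1 was left out. With 3 and 5 factors Neu1 averaged 8.92 and 9.01 and Hexa 12.04 and 12.12, neither called different from 7 factors. Hexa and Ctsd were chosen after their values were seen.

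Energy metabolism rose in part. Of 33 genes of fatty acid and muscle energy metabolism, 11 rose (33.3%) and 1 fell (3.0%), with a median of 0.43 (−0.36 on the poly-A scale with 4 higher and 9 lower). Fabp3, the fatty acid binding protein of heart, read 7.61, 7.81 and 7.72 in control and 10.44, 10.58 and 10.46 in 7-factor cultures (6.86-fold), although it was 0.92 and 0.71 below the 3-factor and 5-factor means. Slc27a1, a fatty acid transporter, read 5.04, 5.43 and 5.29 in control and 7.72, 7.65 and 7.50 in 7-factor cultures and was above both of those groups, by 1.21 and 1.09. Etfdh, which passes electrons from fatty acid oxidation to ubiquinone, was 3.28-fold higher and Cpt1a, the gate of mitochondrial fatty acid entry, 3.01-fold. Among 22 glycolysis genes 6 rose and none fell (median 0.30, −0.49 on the poly-A scale with 4 higher and 9 lower), with Pfkp, a phosphofructokinase, at 8.54, 8.27 and 8.29 in control and 10.50, 10.48 and 10.40 in 7-factor cultures (4.26-fold) and Ldhb, the lactate dehydrogenase subunit of heart, 3.09-fold higher. Of 57 respiratory chain genes 3 rose (5.3%) and 1 fell (1.8%), both under the shares of all genes (14.9% and 9.92%). Fabp4, the adipocyte binding protein, read 8.54, 8.72 and 8.51 in control and 5.18, 5.81 and 5.61 in 7-factor cultures (8.31-fold lower), and Pparg, the adipocyte regulator, was at least 2.67-fold lower, with adjusted p values of 0.05476 to 0.06199 in 4 of the 6 fits that leave out an array (control replicates 1 and 3, 7-factor replicates 2 and 3).

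**Figure D4:**
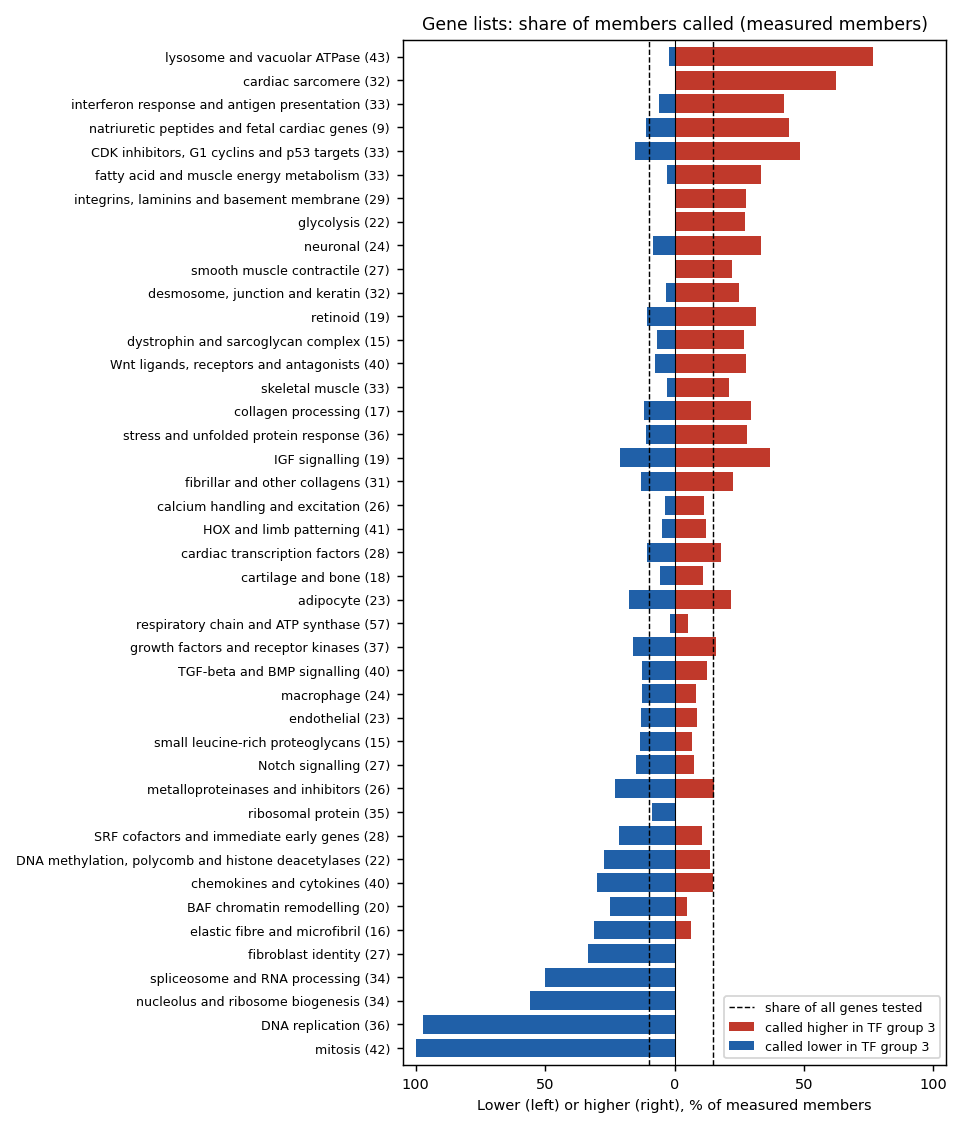
Share of measured members called higher (right, red) and lower (left, blue) in the 7-factor cultures for each of the 43 gene lists, with the number measured in brackets. Dashed lines are the shares of all tested genes, 14.9% higher and 9.92% lower. Mitosis and DNA replication lie at the lower end, and lysosome and cardiac sarcomere at the upper.

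Interferon-response and antigen presentation genes rose in part, with 14 of 33 rising and 2 falling (median 0.62, −0.17 on the poly-A scale with 4 higher and 8 lower). Ifitm1, an interferon-induced membrane protein, read 6.67, 7.11 and 6.71 in control and 11.06, 11.22 and 11.17 in 7-factor cultures (19.9-fold, SE 0.11, adjusted p = 7.945e-09). Its means with 3 and 5 factors were 7.78 and 8.97, both called lower than the 7-factor level. Its relative Ifitm3 was bright in both groups and changed by −0.14. Ifit1, which binds foreign RNA, was 6.09-fold higher, and Tapbp, of peptide loading, was 2.35-fold higher. Gbp2 and Psmb10, both interferon-gamma-inducible, were 2.71-fold and 2.06-fold lower. Tapbp was chosen after its values were seen.

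Chemokines and cytokines were called in both directions, with 6 of 40 higher and 12 lower. The widest changes were those of Ccl17 and Cxcl5. Ccl17, a ligand of CCR4, was at 6.22, 6.0 and 6.21 in control and 10.20, 10.35 and 10.33 in 7-factor cultures (17.7-fold, SE 0.09, adjusted p = 3.918e-09). Its 3-factor and 5-factor means were 7.76 and 7.82. Cxcl5, a neutrophil attractant, read 9.88, 9.62 and 9.98 in control and 5.55, 6.81 and 5.81 in 7-factor cultures (13.7-fold lower). Ccl2 and Ccl7, monocyte attractants, were 3.72-fold and 2.68-fold lower, and Tslp, an epithelial and stromal cytokine, 5.34-fold lower. Il6 fell 1.81-fold and was chosen after its values were seen. Cxcl1, of the same kind as Cxcl5, read 7.95, 8.16 and 7.86 in control and 6.53, 6.74 and 6.67 in 7-factor cultures and was lower than in both other factor groups as well, by 2.12 and 0.93.

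Signalling lists held changes in both directions. In the Wnt list 11 of 40 rose and 3 fell (median 0.36, −0.43 on the poly-A scale with 4 higher and 15 lower). Wnt2, a ligand, read 6.49, 5.90 and 5.95 in control and 7.92, 7.98 and 8.08 in 7-factor cultures (3.68-fold), Axin2, a target of beta-catenin, rose 3.46-fold, and the antagonists Sfrp1 and Sfrp2 went up 2.92-fold and down 2.63-fold. Sfrp2 averaged 9.27 with 3 factors, 3.18 above the 7-factor level. In the TGF-beta and BMP list 5 of 40 rose and 5 fell (12.5% each), near the shares of all genes (14.9% and 9.92%). The ligand Tgfb2 was 3.02-fold higher, and the BMP targets Id4, Id1 and Id2, which block differentiation-promoting bHLH factors, were 3.86-fold, 2.18-fold and 2.14-fold lower, Id4 reading 10.56, 10.27 and 10.32 in control and 8.58, 8.47 and 8.27 in 7-factor cultures. Among 27 Notch genes 2 rose (7.4%) and 4 fell (14.8%). The receptor Notch3 of mural cells was 2.99-fold higher, and Dlk1, a non-canonical Notch ligand of immature cells, read 10.80, 10.97 and 10.90 in control and 9.07, 8.51 and 8.74 in 7-factor cultures (4.34-fold lower).

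The 2 insulin-like growth factors moved in opposite directions. Igf1 read 7.99, 7.93 and 8.19 in control and 10.30, 10.36 and 9.97 in 7-factor cultures (4.5-fold higher), and Igf2, the fetal growth factor, 12.78, 12.86 and 12.87 in control and 10.79, 10.78 and 10.92 in 7-factor cultures (4.02-fold, SE 0.17, adjusted p = 1.07e-05, lower). In the list as a whole 7 of 19 rose (36.8%) and 4 fell (21.1%). Igf2r, which clears IGF2, was 2.52-fold higher and Igf2bp1, which binds Igf2 mRNA, 2.14-fold lower. Kitl, the ligand of KIT, read 9.01, 9.0 and 9.07 in control and 6.78, 6.42 and 7.11 in 7-factor cultures (4.78-fold lower), 1.99 and 0.88 below the 3-factor and 5-factor means. Growth factor and receptor kinase genes were 6 higher and 6 lower of 37 (16.2% each, all genes 14.9% higher and 9.92% lower).

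Retinoid genes included some of the highest changes, with 6 of 19 higher and 2 lower (median 0.20, −0.59 on the poly-A scale with 5 higher and 8 lower). Aldh1a1, a retinaldehyde dehydrogenase, read 5.33, 6.02 and 5.54 in control and 10.62, 10.56 and 10.51 in 7-factor cultures (30.6-fold), 1.33 below its 5-factor mean. Its close relative Aldh1a7 read 6.79, 6.69 and 6.79 in control and 11.26, 11.20 and 11.26 in 7-factor cultures (22.3-fold). The 2 sequences are similar, and how far their probe sets share signal was not tested. Aldh1a2, the main enzyme of retinoic acid synthesis in the embryo, was 3.34-fold higher. Rarres2 (chemerin), a retinoid-responsive secreted protein, read 6.23, 6.25 and 6.06 in control and 8.76, 8.70 and 8.77 in 7-factor cultures and was 2.20 and 2.15 above the 3-factor and 5-factor means. Of 41 HOX and limb genes 5 rose (12.2%) and 2 fell (4.9%), both under the shares of all genes (14.9% and 9.92%). They were led by Hoxd10, at 7.43, 7.01 and 7.30 in control and 9.35, 9.23 and 9.25 in 7-factor cultures (4.08-fold, SE 0.10, adjusted p = 3.65e-07, limma). Hoxd10 averaged 7.68 and 7.92 with 3 and 5 factors.

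Neuronal genes rose in part, with 8 of 24 higher and 2 lower (median 0.40, −0.40 on the poly-A scale with 5 higher and 6 lower). Stmn3, a tubulin-binding stathmin, read 5.18, 5.95 and 6.38 in control and 9.65, 9.68 and 9.74 in 7-factor cultures (14.4-fold) and was 3.50 and 3.27 above the other factor groups. Scg2, a granin of secretory vesicles, was at least 10.1-fold higher, Nefm, the medium neurofilament, 8.57-fold and Tubb3, a neuronal tubulin, 5.65-fold. Gap43, of growth cones, was 3.03-fold lower. The summed neuronal markers given above also rose, but they include Tubb3 and so are not separate from these genes. In the stress list 10 of 36 rose (27.8%) and 4 fell (11.1%), beside 14.9% and 9.92% of all genes. The metallothionein Mt1 was 3.96-fold and Hspb2, a small heat shock protein of muscle, 3.1-fold higher. Nqo1, an oxidative stress enzyme, was 1.89-fold lower.

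Lists that stand for other cell types showed no uniform change. Endothelial genes were 2 higher and 3 lower of 23, macrophage genes 2 higher and 3 lower of 24, adipocyte genes 5 higher and 4 lower of 23 and cartilage and bone genes 2 higher and 1 lower of 18. Beside the 14.9% of all genes called higher, the adipocyte share was above and the other shares were below. Beside the 9.92% called lower, the cartilage and bone share was below and the other shares were above.

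Of the 1847 genes higher than the control, 1384 (74.9%) were called against neither the 3-factor nor the 5-factor cultures. The same held for 1073 (87.2%) of the 1230 lower genes. Of all 12393 tested genes, 133 were higher and 25 lower than the control, the 3-factor and the 5-factor cultures alike. The 3 comparisons share the 7-factor arrays, so a high or low value there enters each of them. Several of those with the highest change lay outside the gene lists. Sez6l2, a brain membrane protein, read 5.21, 4.79 and 5.64 in control and 10.81, 10.63 and 10.83 in 7-factor cultures, and its means with 3 and 5 factors were 6.05 and 6.03. Lhx1, a LIM homeobox factor, was scarcely detected on the control arrays, at 1.73, 4.34 and 4.50, and read 8.25, 8.24 and 8.28 with 7 factors (at least 9.57-fold). Its fitted change of 4.73 became 3.84 without control replicate 1. Efhd1, a mitochondrial calcium-binding protein, read 4.57, 4.89 and 4.71 in control and 9.57, 9.49 and 9.63 in 7-factor cultures (at least 23.7-fold). Calcoco2, an autophagy receptor, was at least 5.33-fold higher. Among genes lower than in every other group, Egfl6, a secreted EGF-repeat protein, read 8.77, 8.75 and 8.43 in control and 4.75, 4.49 and 4.78 in 7-factor cultures (at least 12.5-fold, SE 0.16, adjusted p = 9.182e-08, lower). Its means with 3 and 5 factors, 7.91 and 6.74, lay between. Aqp1, a water channel, read 9.74, 9.82 and 9.63 in control and 6.67, 7.31 and 6.79 in 7-factor cultures (6.98-fold lower), with 8.80 and 8.60 in those groups. Dpt (dermatopontin, a matrix protein) and Mapk13 (a p38 kinase) were 2.58-fold and 1.95-fold lower than the control and below the 5-factor mean by 0.74 and 0.74.

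**Figure D5:**
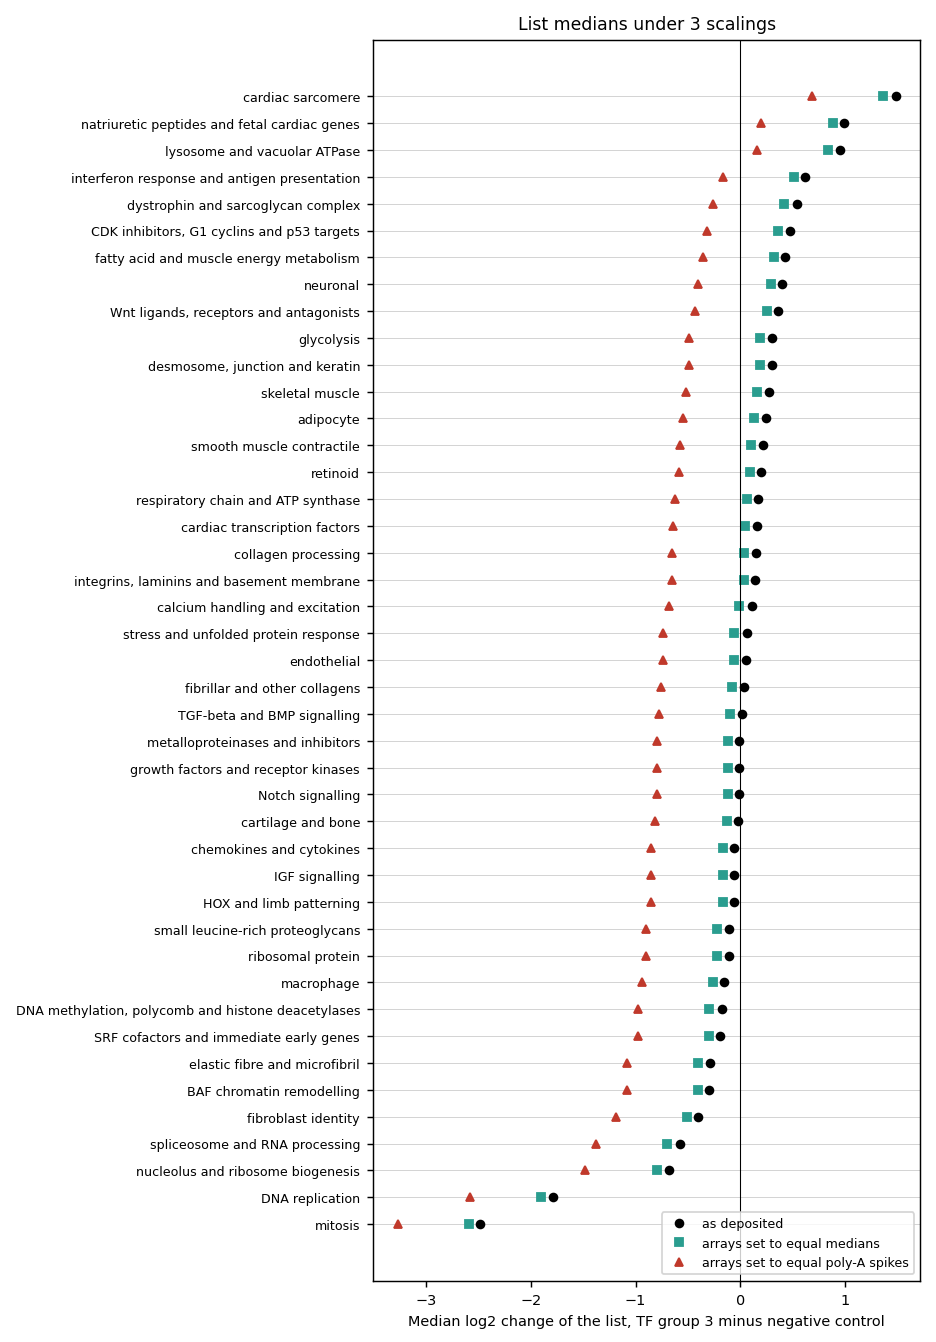
Median log2 change (horizontal) of each gene list named in the text, 7-factor minus control, under 3 scalings of the arrays. Black circles are the values as deposited, green squares arrays set to equal medians and red triangles arrays set to equal poly-A spikes, which move the median of all genes to −0.74 and turn the sign of lists between 0 and about 0.79.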

How the data were processed

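RNA of whole MEF cultures was hybridised to Affymetrix Mouse Genome 430A 2.0 arrays, 3 per group. The authors deposited 1 table of linear signal intensities. Every array in it has the same mean of 500.2 after 2% is trimmed at each end. The submitters' processing notes name Partek and RMA without versions, and the method behind the deposited intensities is not given in the sources used here. Values were taken to log2 with no offset. Genes were named from the platform annotation, in which 20380 probe sets have 1 symbol, 691 several and 1555 none, and each gene was represented by its brightest probe set. Group means were estimated from the 12 arrays together in limma 3.58.1 (R 4.3.3), with Benjamini-Hochberg adjustment over all probe sets or all genes. Calls needed an adjusted p under 0.05 and a fold over 1.5. In simulated data for this comparison with 12393 genes, 100 genes were changed by 1 on the log2 scale and 100 by 2. Of these, 65% and 80% were called, with none in the wrong direction and 4 false calls. The share of genes changed there was far below the 24.8% of genes called in the data. The Benjamini-Hochberg adjustment depends on that share, so these rates need not hold for the real comparison. The number of arrays limits the precision.

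The members and gene lists were chosen with earlier results of these data known. Named genes were drawn, not all of them described, from the delivered factors, the 12 genes with the largest change each way whose arrays did not overlap and whose higher group reached log2 7, up to 4 called members each way and 3 bright uncalled members of each list, 8 genes each way called against all groups, and the genes that the study's own assays measured. Cell type markers and genes said to be chosen later stand outside this rule. Same-numbered control and 7-factor arrays deviated together at r = 0.017, 0.051 and 0.013, so the numbers were not taken to pair samples. Alternatives covered scaling, filters, offset, probe sets, tests, left-out arrays and a replicate block.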

Additional observations from a re-analysis of the deposited data

Results flagged for a closer look

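The array's control probe sets, which take no part in the comparisons, differed between the groups. The poly-A spikes read 7.35 ± 0.4 on the control arrays and 8.14 ± 0.08 on the 7-factor arrays (mean log2 signal and SD, n = 3 each), 0.79 higher with 7 factors. The 18S ribosomal RNA probe sets read 11.13 ± 0.17 and 12.33 ± 0.12, 1.2 higher with 7 factors. On the 3-factor and 5-factor arrays the spikes read 8.03 to 8.28 and the 18S probe sets 12.1 to 12.58. The control arrays thus lay below the arrays of every factor group in both measures. Whether either difference enters the gene values was not tested beyond the poly-A scaling.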

How the results depend on the processing

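No gene called in either direction was called in the other under any alternative. Against the control, 1847 genes (3078 probe sets) higher and 1230 (2117) lower became 950 (1547) and 578 (987) at a fold over 2, and 442 (708) and 6060 (10731) on the poly-A scale. On that scale the comparison with 3 factors gave 104 genes (142 probe sets) lower and 401 probe sets higher, in place of 393, 592 and 687. The comparison with 5 factors gave 98 genes (145 probe sets) higher and 77 (93) lower, in place of 308 (494) and 228 (315). Leaving out 1 array gave 1734 to 1872 genes (2840 to 3177 probe sets) higher and 1178 to 1243 (1999 to 2113) lower than the control, 367 to 403 (570 to 666) and 341 to 393 (509 to 568) against 3 factors, and 244 to 282 (393 to 468) and 194 to 217 (251 to 294) against 5. With the replicate block, 1830 genes were higher and 1218 lower than the control, and of the genes named Ctss alone lost its call.

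On the poly-A scale the changes of Acta2 (−0.73), Atp2a2 (−0.77), Cald1 (−0.68), Col1a2 (−0.77), Col3a1 (−0.77), Col5a2 (−0.74), Dcn (−0.77), Sparc (−0.63), Tbx5 (−0.69), Tpm1 (−0.70) and Vim (−0.74) became negative and called. Of 160 called genes that the text names, 21 lost their call there, namely Cav3, Cdkn1a, Cdkn2b, Col6a3, Ctsd, Des, Dnmt3a, Fos, Hexa, Igf2r, Itga6, Kcnh2, Mdm2, Myoz2, Npr2, Pkp2, Plod1, Tapbp, Tnni3, Ttn and Zfpm1. List medians that turned negative there and exceeded the spread between arrays as deposited were CDK inhibitors and p53 targets −0.32, Wnt −0.43, adipocyte −0.55, cardiac transcription factors −0.64, collagen processing −0.65, junctions −0.49, sarcoglycans −0.26, fatty acid metabolism −0.36, glycolysis −0.49, integrins −0.65, interferon −0.17, neuronal −0.40, respiratory chain −0.62, retinoid −0.59 and smooth muscle −0.58, and medians within that spread that did so were calcium handling −0.68, skeletal muscle −0.52, collagens −0.76, endothelial −0.74, TGF-beta and BMP −0.78 and stress −0.74. The cardiac transcription factor median ran from −0.02 (without control replicate 2) to 0.23 (without control replicate 1). By the mean of its probe sets Myocd changed by 1.12 and was called. Ctss, Myoz2, Pparg, Snai2 and Tnni3 lost their call without some array, Myoz2 and Snai2 also with the 6 arrays alone, and Hey2, Myoz2 and Tnni3 with an offset of 50. The cause of these changes was not tested. Values under a signal of 32 limit the folds of genes near background.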
